A study of Mus musculus with 4 samples.

Results

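RAW 264.7 is a mouse macrophage cell line, and the comparison described here sets its Hnrnpul1-/- cells given lipopolysaccharide (LPS) against its wild-type cells given the same LPS. Both groups received 100 ng/ml for 10 h and held 1 library each, KO_LPS and WT_LPS, which are 2 of the 4 libraries sequenced. The other pair, KO and WT, came from Hnrnpul1-/- and wild-type cells without LPS. How the knockout was made, and whether the knockout line was 1 clone, is not stated in the labels, so a difference between the lines that does not come from Hnrnpul1 cannot be told apart from one that does. The members were chosen by sample title, as each gene holding at least 1 count per 1000000 counts (CPM), averaged over the 4 libraries, which kept 11640 of the 54532 genes listed. At the edge of this filter lay Tst, inside with a mean of 1.002 CPM, and Ugt1a6a, outside with 0.999 CPM.

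LPS, a part of the outer membrane of Gram-negative bacteria, is sensed by macrophages through the receptor TLR4 with its partners CD14 and MD-2. The adaptors MYD88 and TRIF then switch on NF-kB, AP-1 and interferon regulatory factors, and these drive the genes of cytokines, chemokines, antiviral proteins and costimulatory molecules. Hnrnpul1 encodes an hnRNP U-like RNA-binding protein, a member of the nuclear proteins that coat new transcripts and act in their splicing.

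Levels are counts scaled to CPM with the trimmed mean of M values (TMM), and a difference is the log2 ratio of KO_LPS to WT_LPS with its 95% counting interval. A gene was called higher or lower in KO_LPS when it reached 2-fold in either direction with an interval that left out equality. Of the calls named here, 22 fell under 2-fold with the deposited FPKM as log2(value + 1), where low genes shrink most, among them Angptl4, Egr3, Igf1, S1pr1 and Smad6. With 1 library per group no value has a replicate and no test between conditions could be made, so calls describe these libraries, and the intervals and floors cover counting error only. Total counts were 17909549 in KO_LPS and 17045432 in WT_LPS, and 17361615 in KO and 17162124 in WT. A gene with 0 reads entered a ratio at a floor of 3 counts in that library, which was 0.186 CPM in KO_LPS and 0.195 CPM in WT_LPS.

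Hnrnpul1 (ENSMUSG00000040725) occupies chr7:25721165-25754757 on the minus strand of GRCm38. It had 350 reads in KO_LPS, against 3114 in WT_LPS, and 447 reads in KO, against 5086 in WT. Under LPS its level was 21.7 CPM in KO_LPS and 203 CPM in WT_LPS, so the low libraries were those labelled knockout and 10.7% of the level remained (log2 ratio -3.22, -3.39 to -3.06). Its close relatives Hnrnpu and Hnrnpul2, which encode the other hnRNP U-type proteins, had ratios of -0.01 (-0.04 to 0.02) and 0.23 (0.16 to 0.30). Among the 46 measured hnRNP, SR and related splicing protein genes, Hnrnpul1 was the 1 member called, and the list median was -0.01.

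All 12 macrophage markers had reads in every library, among them Csf1r, Adgre1, Itgam and Spi1, and their levels summed to 7578 CPM in KO_LPS and 10362 CPM in WT_LPS. The summed level in untreated cells was 4194 CPM in KO and 4631 CPM in WT. Lyz2, described further on, was the 1 macrophage marker called and made up most of the LPS difference; the other 11 summed to 6333 CPM in KO_LPS and 7028 CPM in WT_LPS. The markers did not move together: Csf1r had 8030 reads in KO_LPS and 12322 in WT_LPS, whereas Adgre1 had 3499 in KO_LPS and 1961 in WT_LPS, and Itgam, Fcer1g and Ptprc also had ratios above 0. All 8 fibroblast markers were at 0 reads in both LPS libraries, and mast cell and epithelial markers had at most 1 read there. T cell markers summed to 14.1 CPM in KO_LPS and 14.7 CPM in WT_LPS, nearly all from Lck, and dendritic cell markers to 2.30 CPM in KO_LPS and 3.71 CPM in WT_LPS. Neutrophil markers summed to 0.994 CPM in KO_LPS and 0.391 CPM in WT_LPS. B cell markers summed to 281 CPM in KO_LPS and 232 CPM in WT_LPS, nearly all from Ighm, and Pax5 was called lower with 29 reads in KO_LPS and 61 in WT_LPS. Cd79b, a B cell receptor chain under the filter, went the other way, with 22 reads in KO_LPS and 0 in WT_LPS, and 1 read in KO and 15 in WT. In bulk RNA, fewer cells of a type and less RNA per cell cannot be told apart, and the part of these marker differences in the results was not tested.

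Under LPS, 193 genes were higher in KO_LPS (1.66% of genes tested) and 213 lower (1.83%), together 3.49%. Most genes differed little, with a median ratio of 0.00, quartiles of -0.16 and 0.15, and 50.2% of genes with a ratio above 0. Calls thinned out with the level. They made up 12.6% of 2020 genes under a mean of 5 CPM over KO_LPS and WT_LPS (118 higher and 136 lower), 2.29% of 5075 genes between 5 and 50 CPM (60 and 56), and 0.792% of 4545 genes at 50 CPM and over (15 and 21). Of 9115 protein-coding genes at 5 CPM and over, 72 were higher and 75 lower.

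**Figure D1:**
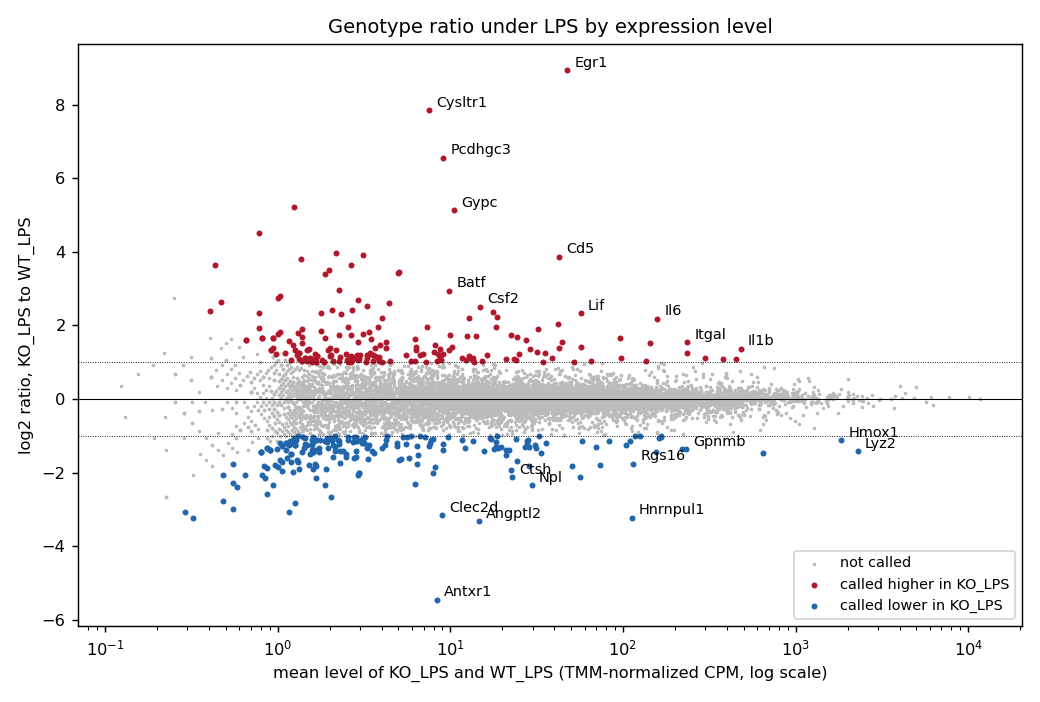
Log2 ratio of KO_LPS to WT_LPS (vertical axis) against the mean level of both libraries in CPM (horizontal axis, log scale), 1 point per gene and 1 library per group, with dotted lines at 2-fold and the 3 genes under a mean of 0.1 CPM not drawn. The 193 genes called higher and the 213 called lower lie beyond the lines, and Egr1 with 0 reads in WT_LPS is drawn at its floor of 3 counts.

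Cytokine genes of the interleukin-6 and colony-stimulating factor group, which drive acute-phase responses and the output of myeloid cells, were higher in KO_LPS for 3 of 7 measured members and lower for none, with 6 of 7 ratios above 0 and a list median of 0.73. This median was 1.45 when scaling and filter used the LPS pair alone and 1.36 with the deposited FPKM. In both of these settings only 6 members were measured, all with ratios above 0. With all 7 members it was 0.74 with DESeq2 size factors and 0.72 with total counts. Il6, the interleukin-6 gene, had 4155 reads in KO_LPS and 876 in WT_LPS, and 0 reads in both untreated libraries. Its level was 258 CPM in KO_LPS and 57.1 CPM in WT_LPS, a ratio of 2.18 (2.07 to 2.28). Lif, encoding leukaemia inhibitory factor, which signals through the same receptor chain gp130, was at 94.7 CPM in KO_LPS and 18.9 CPM in WT_LPS (2.33, 2.14 to 2.51), with 0 reads in KO and 1 read in WT. Csf2, the gene of the granulocyte-macrophage factor GM-CSF, was at 25.2 CPM in KO_LPS and 4.43 CPM in WT_LPS (2.51, 2.14 to 2.90), with 4 reads in KO and 1 in WT. These 3 genes thus had at most 4 reads in any untreated library. Members of the same list that were not called included Csf3, the granulocyte factor G-CSF, at 1424 CPM in KO_LPS and 951 CPM in WT_LPS (0.58, 0.55 to 0.61), and Osm, oncostatin M, at 78.5 CPM in KO_LPS and 54.8 CPM in WT_LPS (0.52, 0.39 to 0.64).

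Of the ligands of the tumour necrosis factor family, 2 of 7 measured members were higher and none lower, with a median of 0.48. Lta, the gene of lymphotoxin alpha, was at 67.9 CPM in KO_LPS and 16.5 CPM in WT_LPS (2.04, 1.85 to 2.25). Tnfsf15, which encodes the ligand TL1A, had 81 reads in KO_LPS and 12 in WT_LPS (2.69, 1.8 to 3.70) and none in untreated cells. Lta lies in the genome beside Tnf and Ltb, which were not called. Tnf was at 1355 CPM in KO_LPS and 1182 CPM in WT_LPS (0.20, 0.17 to 0.23), and Ltb, lymphotoxin beta, at 571 CPM in KO_LPS and 409 CPM in WT_LPS (0.48, 0.44 to 0.53).

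In the interleukin-1 and inflammasome list, 3 of 11 measured members were higher and none lower, with a median of 0.16. All 3 lie on chromosome 2, where Il1a and Il1b are neighbours and Il1rn lies far from both. They encode a pair of agonists and the antagonist of the same receptor. Il1b, the gene of interleukin-1 beta, was at 695 CPM in KO_LPS and 269 CPM in WT_LPS (1.37, 1.32 to 1.42). Il1a, for interleukin-1 alpha, was at 515 CPM in KO_LPS and 241 CPM in WT_LPS (1.09, 1.04 to 1.15). Il1rn, which encodes the receptor antagonist that blocks both, was at 214 CPM in KO_LPS and 74.6 CPM in WT_LPS (1.52, 1.42 to 1.62), against 34 reads in KO and 37 in WT. Il1f6, the interleukin-36 alpha gene, lies next to Il1rn among the tested genes. It was in no list and is named after its values were seen, with 78 reads in KO_LPS and 22 in WT_LPS (1.76, 1.06 to 2.51). Nlrp3, the sensor of the inflammasome that processes interleukin-1 beta, was at 551 CPM in KO_LPS and 553 CPM in WT_LPS (-0.01, -0.05 to 0.04).

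Chemokine genes were mostly not called. Of 10 CC chemokine genes, Ccl6 was higher, with 102 reads in KO_LPS and 33 in WT_LPS (1.56, 0.98 to 2.17), none was lower and the median was 0.41. The neutrophil- and T cell-attracting CXC group had 4 measured members, none called, and a median of 0.07; Cxcl2 was at 1034 CPM in KO_LPS and 915 CPM in WT_LPS (0.18, 0.14 to 0.21). Ccl3 and Ccl4, which attract monocytes and other leukocytes, had ratios of 0.33 (0.32 to 0.35) and 0.28 (0.26 to 0.31), and Ccl5 0.48 (0.45 to 0.51). Subunits of the interleukin-12 family with Il10 and Il15 had 4 measured members, none called, and a median of 0.64; among them Il27 was at 182 CPM in KO_LPS and 110 CPM in WT_LPS (0.73, 0.64 to 0.82). Il12b, the shared subunit of interleukins 12 and 23, fell under the filter with 51 reads in KO_LPS, 11 in WT_LPS and 0 in KO and WT. In all lists but the cell type markers, 26 genes under the filter had at least 10 reads in an LPS library, of which 14 had a higher and 12 a lower level in KO_LPS, and 7 and 2 met the rule for a call; these counts were made after the values were seen.

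**Figure D2:**
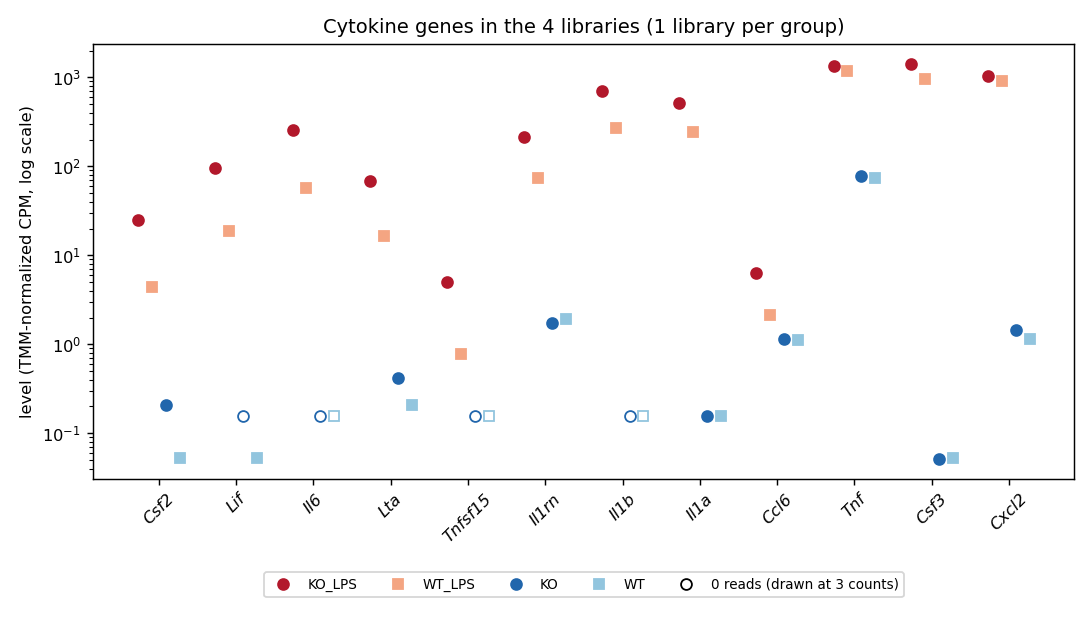
Levels of 12 cytokine genes in CPM (vertical axis, log scale) in KO_LPS, WT_LPS, KO and WT, 1 point per library, with open symbols for 0 reads drawn at 3 counts. KO_LPS stood above WT_LPS for each of these 12, with log2 ratios from 0.18 for Cxcl2 to 2.69 for Tnfsf15. The 12 take in the members called higher, so this direction follows from the choice. Not drawn were the members with ratios below 0. These were 1 of 7 in the interleukin-6 list, 1 of 7 tumour necrosis factor ligands and 3 of 11 in the interleukin-1 list. Among chemokines they were 2 of 10 CC and 2 of 4 CXC genes.

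The start regions of these cytokine genes are shown because Il6, Lif, Il1a and Il1rn were called higher and each holds a full match to a site of AP-1, a dimer of FOS, JUN, ATF and BATF family proteins, within 250 bases before an annotated start. They were chosen for that match: of the 8 genes called higher in the interleukin-6, interleukin-1 and tumour necrosis factor lists, all with a RefSeq window, the other 4, Csf2, Il1b, Lta and Tnfsf15, had no match to the AP-1 motif or to the NF-kB motif given next. The sequences come from RefSeq (GRCm38.p6) and run 5′ to 3′ on the strand of the gene, ending at the base before the start. Capitals mark matches to TGANTCA, the AP-1 motif, or to the NF-kB motif, which is GGGNN followed by TTTCC, each searched on both strands. The Il6 window is chr5:30012864-30013113 on the plus strand, with an AP-1 match whose first base lies 249 bases before the start and an NF-kB match at 44 bases. The Lif window is chr11:4257318-4257567 on the plus strand, with an AP-1 match at 228 bases. The Il1a window is chr2:129309973-129310222 on the minus strand, with an AP-1 match at 12 bases. Il1rn has several annotated starts, of which the window chr2:24336610-24336859 holds an AP-1 match at 141 bases and the window chr2:24345121-24345370 an NF-kB match at 51 bases, both on the plus strand; a further one, chr2:24345041-24345290, holds neither motif before its start.
Il6: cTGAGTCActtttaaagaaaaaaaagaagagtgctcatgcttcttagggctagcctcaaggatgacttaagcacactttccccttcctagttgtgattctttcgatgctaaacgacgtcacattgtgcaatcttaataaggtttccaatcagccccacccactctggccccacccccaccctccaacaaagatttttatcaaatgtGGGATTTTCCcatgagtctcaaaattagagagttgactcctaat
Lif: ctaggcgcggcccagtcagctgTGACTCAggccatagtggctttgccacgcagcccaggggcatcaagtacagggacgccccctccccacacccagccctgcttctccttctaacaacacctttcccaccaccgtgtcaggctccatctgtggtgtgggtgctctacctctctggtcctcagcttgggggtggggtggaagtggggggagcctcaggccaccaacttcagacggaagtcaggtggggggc
Il1a: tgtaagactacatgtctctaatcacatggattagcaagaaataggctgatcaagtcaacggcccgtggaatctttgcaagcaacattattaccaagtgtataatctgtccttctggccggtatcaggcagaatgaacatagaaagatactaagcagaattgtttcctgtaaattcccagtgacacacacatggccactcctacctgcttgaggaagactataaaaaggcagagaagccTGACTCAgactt
Il1rn, first window: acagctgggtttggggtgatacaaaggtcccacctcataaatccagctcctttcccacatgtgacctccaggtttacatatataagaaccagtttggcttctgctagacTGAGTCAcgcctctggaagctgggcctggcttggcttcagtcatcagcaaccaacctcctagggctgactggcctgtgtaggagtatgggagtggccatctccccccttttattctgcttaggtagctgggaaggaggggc
Il1rn, second window: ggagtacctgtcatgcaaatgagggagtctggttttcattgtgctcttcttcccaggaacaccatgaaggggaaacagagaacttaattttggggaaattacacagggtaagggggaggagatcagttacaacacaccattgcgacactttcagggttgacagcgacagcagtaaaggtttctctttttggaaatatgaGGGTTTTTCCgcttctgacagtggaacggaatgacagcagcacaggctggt

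The AP-1 motif was present in 13.9% of the 144 RefSeq windows matched to genes called higher (20 windows of 113 genes), in 7.94% of the 189 windows of genes called lower (15 windows of 146 genes), in 4.94% of windows of the genes tested and in 7.81% of all 32851 windows. Each window spanned 250 bases before the start and 50 after it, and windows were matched for 113 of the 193 higher genes and 146 of the 213 lower ones. The NF-kB motif had shares of 2.78% in higher genes, 1.06% in lower genes, 1.75% in genes tested and 1.63% in all windows. In the same order, the NRF2 element TGACNNNGC had 16.7%, 19.0%, 14.4% and 12.4%, and the interferon element (GAAANN followed by GAAA) 6.25%, 3.17%, 3.37% and 3.44%. The EGR1 motif GCGNGGGCG had 6.94% in higher genes and 9.52% in lower genes, both above the 5.55% of all windows and below the 10.3% of genes tested. All were searched on both strands and without removing overlaps between motifs. A match is a description of letters and no test of these shares was made. Other higher genes with an AP-1 match included Aqp9, Bcl2a1a, Cd80, Creb5, Mmp12 and Sema4c.

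Transcription factor genes of the AP-1, EGR, NR4A and bZIP groups, many of them immediate early genes that respond within minutes of a stimulus, were higher for 4 of 29 measured members and lower for 1, with a median of 0.29. Batf, a partner of JUN proteins in AP-1 dimers, had 281 reads in KO_LPS and 35 in WT_LPS (2.94, 2.43 to 3.49), against 2 reads in KO and 1 in WT. Nr4a1, an orphan nuclear receptor, had 65 reads in KO_LPS and 16 in WT_LPS (1.95, 1.15 to 2.84). Egr3, a relative of Egr1, was lower with 12 reads in KO_LPS and 39 in WT_LPS (-1.77, -2.84 to -0.81). The more abundant members had small ratios, such as Junb at 530 CPM in KO_LPS and 433 CPM in WT_LPS (0.29, 0.24 to 0.34) and Atf3, a brake on inflammatory genes, at 316 CPM in KO_LPS and 217 CPM in WT_LPS (0.54, 0.48 to 0.61).

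Egr1, another higher member, had no reads in either wild-type library. It had 1530 reads in KO_LPS and 0 in WT_LPS, and 443 reads in KO and 0 in WT, and was at least 486-fold higher in KO_LPS against the floor of 3 counts in WT_LPS. Outside the lists, Creb5, a bZIP factor of the CREB and ATF group, had 187 reads in KO_LPS and 46 in WT_LPS (1.95, 1.48 to 2.45), and Arntl2, a paralogue of the clock factor BMAL1, at 9.19 CPM in KO_LPS and 0.847 CPM in WT_LPS (3.44, 2.62 to 4.38). Klf10, a zinc finger factor induced by TGF-beta, was lower at 2.86 CPM in KO_LPS and 8.60 CPM in WT_LPS (-1.59, -2.11 to -1.10). Under the filter, Nr4a3 had 29 reads in KO_LPS and 1 read in each other library.

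Cytokine signalling through JAK kinases and STAT factors had 2 of 23 measured members higher, none lower and a median of 0.13. Cish, a feedback inhibitor of STAT5 signalling, had 107 reads in KO_LPS and 22 in WT_LPS (2.21, 1.54 to 2.95). Stat5a, a factor activated by GM-CSF among others, was at 49.7 CPM in KO_LPS and 20.8 CPM in WT_LPS (1.26, 1.07 to 1.45). Socs3, the inhibitor of gp130 signalling, had the opposite sign and was not called, at 264 CPM in KO_LPS and 342 CPM in WT_LPS (-0.37, -0.43 to -0.32). Cytokine and interferon receptor chains had no call among 28 measured members and a median of 0.01, although Cd40 was at 204 CPM in KO_LPS and 115 CPM in WT_LPS (0.83, 0.75 to 0.92). Under the filter, the receptor chain Il2ra had 23 reads in KO_LPS, 1 in WT_LPS and 0 in KO and WT, and Tnfrsf9, of the tumour necrosis factor receptor family, went the other way with 21 reads in KO_LPS and 33 in WT_LPS.

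NF-kB pathway genes had no call among 26 measured members, with 18 ratios above 0 and a median of 0.17. Nfkbia, the inhibitor IkB alpha, was at 650 CPM in KO_LPS and 571 CPM in WT_LPS (0.19, 0.15 to 0.23), and Nfkbiz, the nuclear cofactor IkB zeta needed for Il6 induction, at 402 CPM in KO_LPS and 250 CPM in WT_LPS (0.69, 0.63 to 0.74). Regulators of cytokine mRNA stability had no call among 22 and a median of -0.04; Zfp36, which encodes tristetraprolin, a protein that sends Tnf and Il6 mRNA to decay, was at 281 CPM in KO_LPS and 257 CPM in WT_LPS (0.13, 0.06 to 0.19). Of 13 MAP kinase phosphatase and related genes, Dusp2 was higher at 87.3 CPM in KO_LPS and 43.0 CPM in WT_LPS (1.02, 0.89 to 1.16), and the list median was 0.10. Toll-like receptor pathway genes had 2 of 29 members higher, none lower and a median of 0.02. These were Tlr1 and Tlr6, which both pair with TLR2 to bind lipopeptides, with ratios of 1.72 (1.40 to 2.05) and 1.03 (0.65 to 1.42). Cd14, the LPS co-receptor, was at 2641 CPM in KO_LPS and 3011 CPM in WT_LPS (-0.19, -0.21 to -0.17).

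Interferon response genes were close to balance under LPS, with 2 of 55 measured members higher, none lower, 27 ratios above 0 and a median of -0.004. Without LPS the list median of KO against WT was 0.56. The LPS ratio fell below the untreated one by at least 1, with an interval excluding 0, for 6 members. It rose above it by that rule for 0 members. Over all genes with such a difference, 1.84% were lower. Slfn5, a Schlafen family gene, was at 146 CPM in KO_LPS and 45.9 CPM in WT_LPS (1.67, 1.54 to 1.79). Ifit1bl1 had 55 reads in KO_LPS and 25 in WT_LPS (1.07, 0.36 to 1.81). Isg15, a ubiquitin-like modifier, was at 1230 CPM in KO_LPS and 871 CPM in WT_LPS (0.50, 0.47 to 0.53), and Oasl1 at 1029 CPM in KO_LPS and 1076 CPM in WT_LPS (-0.06, -0.10 to -0.03). Interferon regulatory factors had no call among 8 and a median of 0.05; Irf8, a lineage factor of macrophages and dendritic cells, was at 493 CPM in KO_LPS and 301 CPM in WT_LPS (0.71, 0.66 to 0.76).

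Surface molecules of T cell contact were higher for 3 of 15 measured members and lower for none, with a median of 0.17. Cd80, a ligand of CD28 and CTLA-4, was at 17.7 CPM in KO_LPS and 7.88 CPM in WT_LPS (1.17, 0.86 to 1.49), and Cd86, the other such ligand, had 67 reads in KO_LPS and 28 in WT_LPS (1.19, 0.53 to 1.88). Cd48, a SLAM family receptor, had 50 reads in KO_LPS and 19 in WT_LPS (1.33, 0.54 to 2.17). Slamf7, of the same family, fell under the filter with 39 reads in KO_LPS, 9 in WT_LPS and 0 in KO and WT. Over members averaging 10 CPM or more across the 4 libraries, the median was -0.01.

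Chemoattractant receptor genes were higher for 4 of 18 measured members and lower for 2, with a median of 0.13. Fpr2 and Fpr1, neighbouring genes for receptors of formylated bacterial peptides, were higher: Fpr2 at 37.4 CPM in KO_LPS and 11.5 CPM in WT_LPS (1.70, 1.45 to 1.95), and Fpr1 with 85 reads in KO_LPS and 37 in WT_LPS (1.13, 0.56 to 1.73). Ccrl2, a receptor that binds chemerin, was at 69.4 CPM in KO_LPS and 34.6 CPM in WT_LPS (1.00, 0.85 to 1.15). Cysltr1, a receptor of cysteinyl leukotrienes, had 241 reads in KO_LPS and 1 read in WT_LPS, a ratio of 7.84 (5.35 to 13.15), and 383 reads in KO and 5 in WT. Cxcr3, the receptor of Cxcl10, was lower with 30 reads in KO_LPS and 72 in WT_LPS (-1.33, -2.00 to -0.70), and so was S1pr1, the sphingosine-1-phosphate receptor, with 5 reads in KO_LPS and 24 in WT_LPS (-2.33, -4.08 to -0.91). Under the filter, the homing receptor Ccr7 had 18 reads in KO_LPS, 3 in WT_LPS and 0 in KO and WT, while the adenosine receptor Adora3 had 2 reads in KO_LPS and 13 in WT_LPS and the chemokine receptor Ccr2 had 1 read in KO_LPS and 8 in WT_LPS.

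Fc receptor and proximal signalling genes were higher for 2 of 20 measured members and lower for none, with a median of 0.06. Cd5, an inhibitory surface protein best known from T and B-1 cells, had 1276 reads in KO_LPS and 84 in WT_LPS, and 127 reads in KO and 35 in WT. Its level was 79.2 CPM in KO_LPS and 5.47 CPM in WT_LPS (3.86, 3.54 to 4.19). Next to Cd5 on chromosome 19, Cd6, a related receptor named after its values were seen, had 65 reads in KO_LPS and 8 in WT_LPS (2.95, 1.89 to 4.22), and the noncoding gene A430093F15Rik between them had 477 reads in KO_LPS and 89 in WT_LPS (2.35, 2.02 to 2.70). Fcgr2b, the inhibitory IgG receptor, was at 332 CPM in KO_LPS and 139 CPM in WT_LPS (1.25, 1.18 to 1.32). Cd69, an early activation marker outside the lists, was at 34.6 CPM in KO_LPS and 10.4 CPM in WT_LPS (1.73, 1.47 to 1.99) and had 0 reads in KO and WT. The T cell markers listed above were not called, with 225 reads of Lck in KO_LPS and 224 in WT_LPS.

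Adhesion and matrix genes were called both ways, 4 of 29 higher and 5 lower, with a median of 0.06, which was -0.02 over members averaging 10 CPM or more. Itgal, the alpha chain of the integrin LFA-1, was at 352 CPM in KO_LPS and 121 CPM in WT_LPS (1.54, 1.47 to 1.62), while its beta chain Itgb2 had a ratio of -0.08 (-0.13 to -0.03). Timp1, an inhibitor of metalloproteinases, was at 21.0 CPM in KO_LPS and 4.56 CPM in WT_LPS (2.20, 1.83 to 2.60), and Mmp12, the macrophage elastase, had 49 reads in KO_LPS and 23 in WT_LPS (1.02, 0.28 to 1.805). Pcdhgc3, a protocadherin, had 294 reads in KO_LPS and 0 in WT_LPS, and 228 reads in KO and 0 in WT, at least 93.4-fold higher in KO_LPS. Its neighbour Pcdhgc5 went the other way with 39 reads in KO_LPS and 118 in WT_LPS (-1.67, -2.23 to -1.13), and since these genes share exons the counts of both are uncertain.

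Several other genes had few or no reads in WT_LPS. Gypc, which encodes the membrane protein glycophorin C, had 329 reads in KO_LPS and 9 in WT_LPS (5.12, 4.18 to 6.27), with 193 reads in KO and 1 in WT. Lhx5, a homeobox gene named after its values were seen, had 44 reads in KO_LPS and 0 in WT_LPS, and 27 in KO and 0 in WT, at least 13.99-fold higher in KO_LPS. In all, 3 genes with a ratio had 0 reads in 1 LPS library and were called (Egr1, Pcdhgc3 and Lhx5), each at 0 in WT_LPS and WT. Antxr1, an anthrax toxin receptor that binds collagen, was the reverse case with 6 reads in KO_LPS and 250 in WT_LPS (-5.45, -6.91 to -4.31), and 5 reads in KO and 256 in WT.

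Calls in the lists of cell death, transport, arginine and growth factor genes can be set against the 3.49% called over all genes tested. In the p53 and cell death list 2 of 29 members were higher, none lower, and the median was 0.10. Both were copies of the survival gene A1, Bcl2a1a (1.89, 1.67 to 2.12) and Bcl2a1b (1.00, 0.82 to 1.19), and the copy Bcl2a1d had a ratio of 0.97 (0.90 to 1.03); these near-identical genes can share reads. Aqp9, a water and glycerol channel, was the 1 call among 20 transport genes (median -0.10), at 30.9 CPM in KO_LPS and 6.64 CPM in WT_LPS (2.22, 1.91 to 2.54). Ass1, which makes argininosuccinate for the recycling of citrulline to arginine, was the 1 call among 15 nitric oxide, arginine and polyamine genes (median 0.09), at 18.3 CPM in KO_LPS and 8.60 CPM in WT_LPS (1.09, 0.79 to 1.39). Nos2, the inducible nitric oxide synthase, had a ratio of 0.15 (0.11 to 0.18). Among 20 Notch, Wnt, TGF-beta and growth factor genes, 2 were higher and 2 lower with a median of 0.02. The higher ones were Edn1, endothelin 1, at 15.3 CPM in KO_LPS and 4.56 CPM in WT_LPS (1.74, 1.36 to 2.15), and Pdgfb, a platelet-derived growth factor chain, at 618 CPM in KO_LPS and 289 CPM in WT_LPS (1.09, 1.04 to 1.14).

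**Figure D3:**
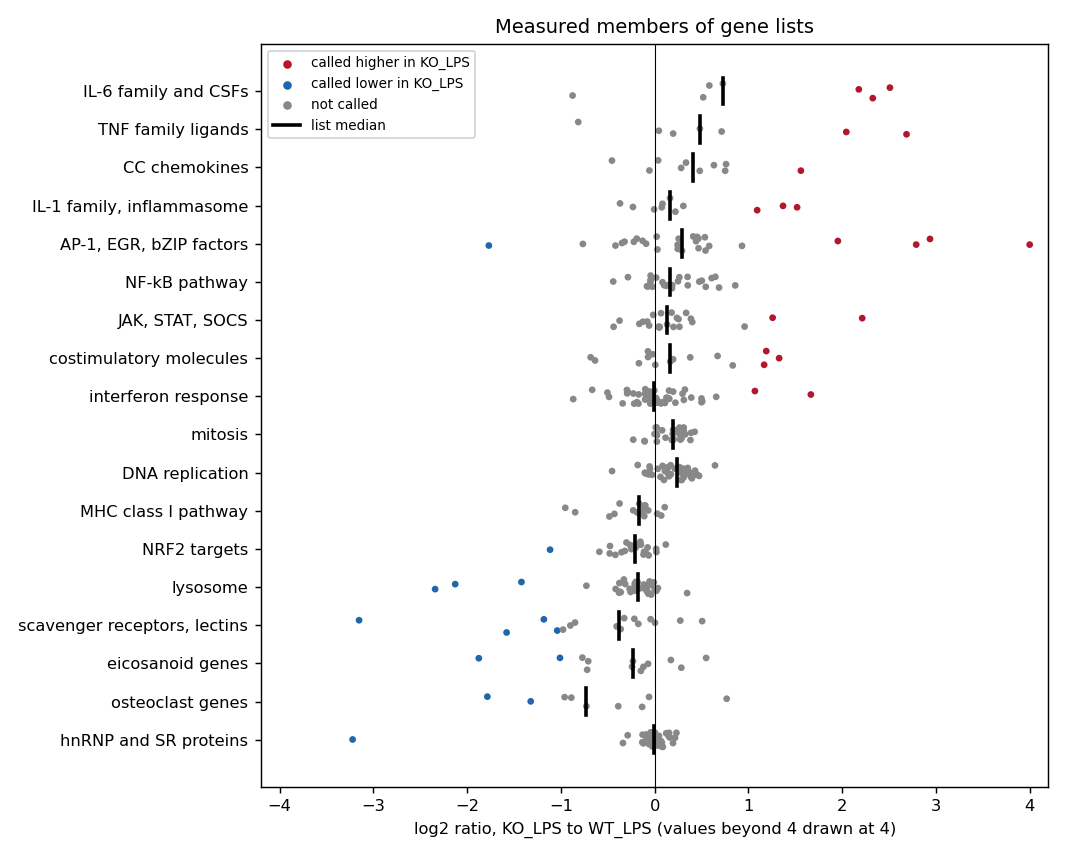
Log2 ratios of KO_LPS to WT_LPS (horizontal axis) for the measured members of 18 gene lists, 1 point per gene, with the list median as a bar and ratios beyond 4 drawn at 4. Cytokine lists lie to the right of 0, with a median of 0.73 for the interleukin-6 group, and the scavenger receptor (-0.38) and osteoclast (-0.73) lists to the left.

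Genes of the lysosome list stood on the lower side, with 3 of 40 measured members lower, none higher, 5 ratios above 0 and a median of -0.18. Lyz2, the macrophage lysozyme, had 20041 reads in KO_LPS and 51187 in WT_LPS, or 1245 CPM in KO_LPS and 3334 CPM in WT_LPS (-1.42, -1.45 to -1.40). Ctsh, cathepsin H, an aminopeptidase of the lysosome, was at 8.51 CPM in KO_LPS and 37.2 CPM in WT_LPS (-2.13, -2.41 to -1.86). Npl, counted in this list although its enzyme breaks down sialic acid in the cytosol, was at 9.75 CPM in KO_LPS and 49.4 CPM in WT_LPS (-2.34, -2.60 to -2.09). The other cathepsins named here had smaller ratios, with Ctsb, cathepsin B, at 1759 CPM in KO_LPS and 1996 CPM in WT_LPS (-0.18, -0.21 to -0.16) and Ctsz, cathepsin Z, at 1109 CPM in KO_LPS and 1138 CPM in WT_LPS (-0.04, -0.07 to -0.01).

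Targets of NRF2, the factor that answers oxidative and electrophilic stress, were lower for 1 of 24 measured members and higher for none, with 3 ratios above 0 and a median of -0.21. Hmox1, heme oxygenase 1, had 18736 reads in KO_LPS and 38723 in WT_LPS, or 1164 CPM in KO_LPS and 2522 CPM in WT_LPS (-1.12, -1.14 to -1.09). Slc7a11, the cystine importer, was at 541 CPM in KO_LPS and 754 CPM in WT_LPS (-0.48, -0.52 to -0.44), and Sqstm1, the autophagy adaptor p62, at 1251 CPM in KO_LPS and 1359 CPM in WT_LPS (-0.12, -0.15 to -0.09). Akr1b8, an aldo-keto reductase outside the list, was at 104 CPM in KO_LPS and 218 CPM in WT_LPS (-1.07, -1.15 to -0.98). Of 12 iron handling genes, Slc11a1, which encodes the phagosomal metal transporter NRAMP1, was lower at 17.4 CPM in KO_LPS and 38.2 CPM in WT_LPS (-1.13, -1.34 to -0.93), none was higher and the median was -0.11. Ftl1, the ferritin light chain, was at 1319 CPM in KO_LPS and 1567 CPM in WT_LPS (-0.25, -0.28 to -0.22).

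Scavenger receptor and C-type lectin genes were lower for 4 of 16 measured members and higher for none, with 3 ratios above 0 and a median of -0.38. Clec2d, a lectin-like ligand of an NK cell receptor, had 29 reads in KO_LPS and 246 in WT_LPS (-3.15, -3.76 to -2.59). Siglec1, the sialic acid-binding receptor CD169, had 354 reads in KO_LPS and 766 in WT_LPS (-1.18, -1.37 to -0.999). Clec4n, which encodes dectin-2, a receptor of fungal mannans, had 20 reads in KO_LPS and 57 in WT_LPS (-1.58, -2.39 to -0.82), and Stab1, the scavenger receptor stabilin 1, had 75 reads in KO_LPS and 147 in WT_LPS (-1.04, -1.46 to -0.63). Msr1, scavenger receptor A, had the opposite sign and was not called, at 394 CPM in KO_LPS and 326 CPM in WT_LPS (0.27, 0.22 to 0.33).

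Macrophage identity genes had 2 of 23 measured members lower, with a median of -0.22. The lower ones were Lyz2 and Gpnmb, a glycoprotein of lysosome-rich macrophages, which was at 130 CPM in KO_LPS and 334 CPM in WT_LPS (-1.36, -1.44 to -1.29). Csf1r, the receptor of M-CSF, was at 499 CPM in KO_LPS and 803 CPM in WT_LPS (-0.69, -0.73 to -0.65). Spp1, osteopontin, was at 7933 CPM in KO_LPS and 7569 CPM in WT_LPS (0.07, 0.06 to 0.08), and 9 of the 23 ratios were above 0.

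Osteoclast genes, which RAW 264.7 cells can induce when given RANKL, were lower for 2 of 9 measured members and higher for none, with 1 ratio above 0 and a median of -0.73, which was -0.39 over members averaging 10 CPM or more. Both calls rested on few reads. Atp6v0d2, a proton pump subunit, had 7 reads in KO_LPS and 23 in WT_LPS (-1.78, -3.25 to -0.52), and Acp5, tartrate-resistant acid phosphatase, had 13 reads in KO_LPS and 31 in WT_LPS (-1.32, -2.38 to -0.35). Just under the 2-fold size were Tnfrsf11a, the receptor RANK, at 53.1 CPM in KO_LPS and 103 CPM in WT_LPS (-0.96, -1.08 to -0.84), and Nfatc1, the leading osteoclast factor, at 49.9 CPM in KO_LPS and 92.5 CPM in WT_LPS (-0.89, -1.02 to -0.76).

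Eicosanoid genes were lower for 2 of 13 measured members and higher for none, with a median of -0.23. Ptges, the prostaglandin E synthase that acts after COX-2, had 63 reads in KO_LPS and 121 in WT_LPS (-1.01, -1.47 to -0.56), and Ltc4s, leukotriene C4 synthase, had 6 reads in KO_LPS and 21 in WT_LPS (-1.88, -3.47 to -0.52). Ptgs2, the COX-2 gene itself, had the opposite sign at 2379 CPM in KO_LPS and 1626 CPM in WT_LPS (0.55, 0.53 to 0.57). Complement and coagulation genes had 1 of 10 lower, none higher and a median of 0.10; Plau, the urokinase protease, was at 61.7 CPM in KO_LPS and 146 CPM in WT_LPS (-1.24, -1.35 to -1.13), while its receptor Plaur had a ratio of 0.04 (-0.01 to 0.09).

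Regulators of G protein and RAS signalling had 2 of 12 measured members lower, none higher and a median of 0.03. Rgs16, which shortens signals of G protein-coupled receptors, was at 52.6 CPM in KO_LPS and 177 CPM in WT_LPS (-1.75, -1.86 to -1.64), and Gem, a small GTPase that restrains calcium channels, at 2.11 CPM in KO_LPS and 10.4 CPM in WT_LPS (-2.30, -2.88 to -1.76). In the Notch and growth factor list the lower members were Jag1, a Notch ligand, at 22.5 CPM in KO_LPS and 78.6 CPM in WT_LPS (-1.81, -1.98 to -1.64), and Smad6, an inhibitor of BMP signalling, with 12 reads in KO_LPS and 40 in WT_LPS (-1.81, -2.87 to -0.85). The Notch receptor gene Notch2 had a ratio of 0.16 (0.09 to 0.22). Apart from Antxr1, the lower adhesion and matrix genes were Angptl2, a secreted angiopoietin-like protein, with 43 reads in KO_LPS and 410 in WT_LPS (-3.32, -3.81 to -2.87), Angptl4 (-1.39, -2.40 to -0.46), Cldn11 (-2.00, -2.47 to -1.54) and Selplg (-1.03, -1.51 to -0.57).

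Abundant lower genes outside the lists included Ank, a membrane exporter that controls extracellular pyrophosphate, at 344 CPM in KO_LPS and 951 CPM in WT_LPS (-1.47, -1.51 to -1.42). Myof, the membrane repair protein myoferlin, was at 83.7 CPM in KO_LPS and 228 CPM in WT_LPS (-1.45, -1.54 to -1.35). Layn, a hyaluronan receptor, was at 21.1 CPM in KO_LPS and 92.2 CPM in WT_LPS (-2.13, -2.31 to -1.96). Pid1, a phosphotyrosine interaction domain protein, was at 33.3 CPM in KO_LPS and 114 CPM in WT_LPS (-1.78, -1.92 to -1.64), and Igf1, insulin-like growth factor 1, had 54 reads in KO_LPS and 147 in WT_LPS (-1.51, -1.99 to -1.05).

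**Figure D4:**
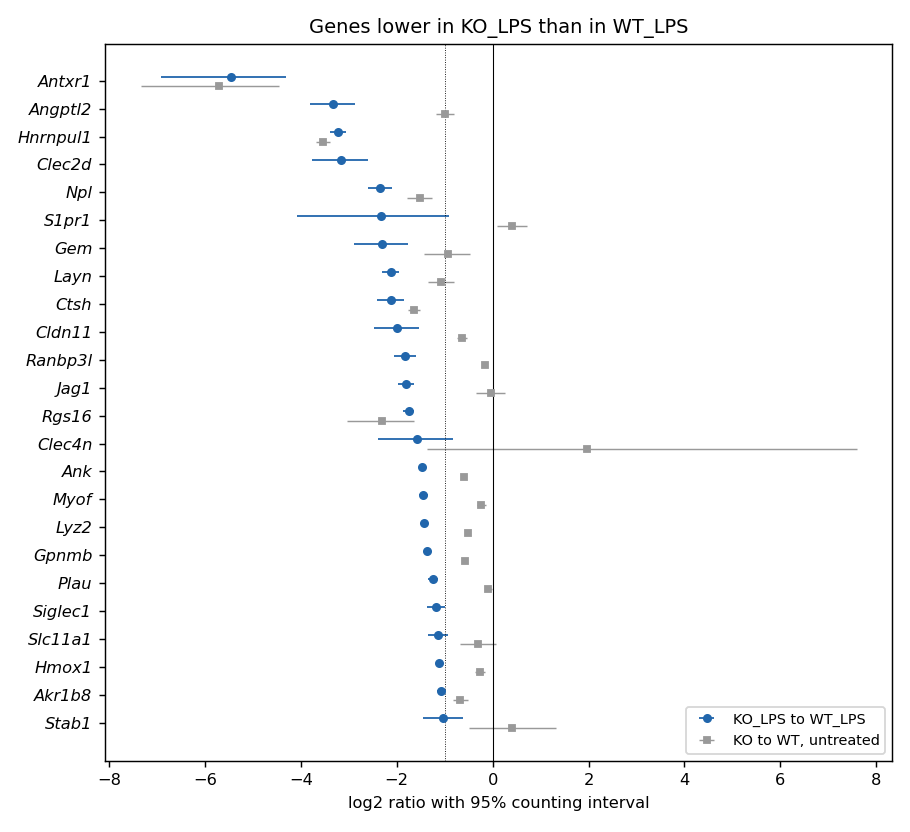
Log2 ratios with 95% counting intervals (horizontal axis) of 24 genes called lower in KO_LPS, for KO_LPS to WT_LPS (circles) and KO to WT without LPS (squares), 1 library per group, with a dotted line at 2-fold; untreated ratios are left out where a library had 0 reads or both had at most 3. Jag1 and Ranbp3l lie far left of their untreated ratios of -0.04 and -0.17, while Antxr1 and Hnrnpul1 lie beside theirs.

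Most of the lists that follow had no called member. Over all genes tested 3.49% were called, and 0.792% of those at 50 CPM and over. At such shares a list of this size can hold no call, so its absence does not show that a pathway was spared. In the cell cycle, 25 of 29 mitosis genes had ratios above 0 (median 0.20) and so had 32 of 40 DNA replication genes (median 0.24), with none called; Mki67, a marker of dividing cells, was at 133 CPM in KO_LPS and 123 CPM in WT_LPS (0.12, 0.03 to 0.21). Genes of the MHC class I pathway had no call among 19, with 3 ratios above 0 and a median of -0.16. Class II pathway genes had 1 of 7 lower, H2-DMa with 17 reads in KO_LPS and 33 in WT_LPS (-1.03, -1.96 to -0.14), and a median of -0.04. Of these 7 ratios, 3 were above 0, up to 1.39, and none was called higher. Under the filter, H2-Aa had 8 reads in KO_LPS and 0 in WT_LPS, and 54 in KO and 0 in WT. H2-Ab1 had 8 reads in KO_LPS and 0 in WT_LPS, and 24 in KO and 0 in WT. Ciita, H2-DMb1 and H2-DMb2 had 0 reads in both LPS libraries. Without LPS, Ciita had 24 reads in KO and 3 in WT, while H2-DMb2 had 8 in KO and 10 in WT. No member was called among 29 glycolysis and hypoxia genes (median -0.05), 27 genes of the unfolded protein and stress response (0.11), 30 LXR and cholesterol genes (0.03), 35 double-strand break repair genes (-0.04) and 9 phagocyte oxidase genes (0.03). In all, of 850 measured genes in the lists, 39 were higher, 30 lower and 781 not called, and 337 called genes were in no list.

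The untreated pair, KO against WT, shares no library with the LPS pair, and it had 134 genes higher (1.15% of genes tested) and 100 lower (0.859%), together 2.01%. Of the 193 genes higher in KO_LPS, 172 had an untreated ratio, of which 40 were also called higher and 5 called lower without LPS; their ratios under LPS had a median of 1.33 and their untreated ratios one of 0.48. Of the 213 genes lower in KO_LPS, 207 had an untreated ratio, of which 38 were also called lower and 2 higher, and the medians were -1.32 under LPS and -0.39 untreated. Since the genes were picked by their LPS ratio, the choice alone can make the LPS medians the larger in size. Among genes higher in both were Egr1, Cysltr1, Gypc, Cd5, Arntl2, Itgal (untreated 1.17) and Fcgr2b (untreated 1.38), and among those lower in both Antxr1, Npl, Ctsh, Layn, Pid1 and Rgs16 (untreated -2.31).

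The difference between the LPS ratio and the untreated ratio was called where it was at least 1 on the log2 scale with an interval that excluded 0, which gave 136 genes higher (1.18% of 11552 genes with a difference) and 213 lower (1.84%), together 3.02%. It was called higher for 56 of the 168 genes higher in KO_LPS that had one, and lower for 87 of the 205 lower genes. These genes were picked by their LPS ratio, which is part of the difference. The choice alone pushes their differences the same way, so the counts cannot show that a genotype ratio depends on LPS. Il1rn had a difference of 1.67 (0.99 to 2.35), Ccl6 of 1.52 (0.49 to 2.55), Cd80 of 1.12 (0.57 to 1.67) and Cd5 of 2.03 (1.40 to 2.65). On the lower side, Jag1 had a difference of -1.76 (-2.11 to -1.42), with 177 reads in KO and 179 in WT. Ranbp3l, a Ran-binding protein gene, had one of -1.65 (-1.89 to -1.42), Plau of -1.15 (-1.28 to -1.03) and Myof of -1.21 (-1.34 to -1.07). Il6, Il1b, Tnfsf15, Fpr2 and Cd69 had 0 reads in both untreated libraries, so no difference could be formed for them. For Csf2 the difference was 0.54 with an interval of -2.65 to 3.72, too wide at this depth to show one.

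**Figure D5:**
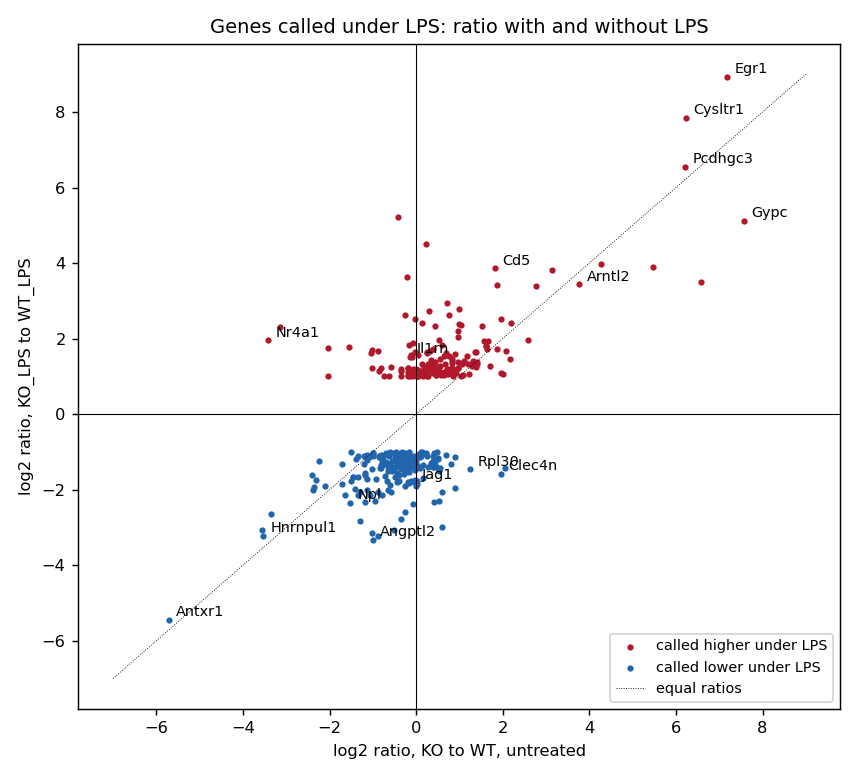
Log2 ratio of KO_LPS to WT_LPS (vertical axis) against that of KO to WT without LPS (horizontal axis) for the genes called under LPS that have both ratios, 1 point per gene, with a dotted line of equal ratios. Antxr1 and Pcdhgc3 lie near the line, while Nr4a1 and Rpl30 lie in quadrants of opposite sign.

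Of the called genes, 154 higher and 171 lower were protein-coding, out of 10334 tested. Over all genes tested, 1.66% were higher and 1.83% lower. Of genes under 5 CPM 12.6% were called, and the biotypes were not matched for level, so their shares cannot be compared directly. Processed pseudogenes were called higher for 19 and lower for 8 of 532, and antisense RNAs higher for 2 and lower for 13 of 160; pseudogene counts share reads with their parent genes, and reads of antisense genes cannot be told from those of their partners, since no source used here says whether counting used strand. Rpl17, a ribosomal protein gene, was at 408 CPM in KO_LPS and 188 CPM in WT_LPS (1.12, 1.05 to 1.18), and its processed pseudogene Rpl17-ps10 at 124 CPM in KO_LPS and 318 CPM in WT_LPS (-1.36, -1.43 to -1.28), so both values are uncertain. Il1bos, an antisense RNA that overlaps Il1b, had 70 reads in KO_LPS and 33 in WT_LPS (1.02, 0.40 to 1.66). Among other genes that do not encode proteins, the pseudogene Gm19026 had 150 reads in KO_LPS and 543 in WT_LPS (-1.92, -2.20 to -1.66).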

How the data were processed

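The 4 libraries were made from poly-A RNA of RAW 264.7 cells. HISAT2 2.0.5, CASAVA 1.8 and featureCounts 1.5.0-p3 are named in the submitters' processing notes, with mm10 and GRCm38 as builds. The read counts were deposited by the authors as whole numbers per gene, not normalized. The authors' deposited FPKM are these counts over gene length and a library constant, which was 0.927, 0.932, 1.16 and 1.15 times the total count in KO_LPS, WT_LPS, KO and WT.

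TMM factors (edgeR 4.0.16, R 4.3.3) over the genes that passed the filter were 0.899, 0.901, 1.12 and 1.11 in the same order. Ratios took an exact conditional (Clopper-Pearson) 95% interval in Python 3.11.15 with scipy 1.17.1, and differences of ratios a delta-method interval. Genes with at most 3 counts in both libraries took no ratio, which left out 5 of 11640. The 50 gene lists and the members were chosen with earlier results of these data known; 1091 of 1095 listed genes were in the files. Named were Hnrnpul1, the called and up to 4 most abundant members of each list, the 25 highest and 25 lowest protein-coding calls at 5 CPM and over, up to 6 of other biotypes per direction, and the 10 largest gains and losses in CPM; other genes named were chosen after their values were seen. A gene of these lists is not reported here. The calling step was tested on simulated data, which checks the calculation and cannot show how replicates of these groups would vary. Size factors of DESeq2 1.42.0 and total counts served as alternative scalings, beside other filters and fold sizes, the LPS libraries alone and the deposited FPKM.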

Additional observations from a re-analysis of the deposited data

Results flagged for a closer look

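Genes called in opposite directions with and without LPS numbered 7, and this contrast between the pairs has no replicate, so it was not tested beyond counting error. By sign alone, without a call in the untreated pair, reversals were more frequent. The untreated ratio had the same sign for 133 of 172 higher and 166 of 207 lower genes. Of the 7 genes, 3 are given here. Nr4a1 had 65 reads in KO_LPS and 16 in WT_LPS, a log2 ratio of 1.95, and 2 reads in KO and 21 in WT, a ratio of -3.42; the difference was 5.37 (3.14 to 7.61). The ribosomal protein gene Rpl30 had 289 reads in KO_LPS and 757 in WT_LPS, a ratio of -1.46, and 1219 reads in KO and 504 in WT, a ratio of 1.25, with a difference of -2.70 (-2.95 to -2.46). Rpl30, like other ribosomal protein genes, can share reads with processed pseudogenes, and the part of this in its ratio was not tested. The gene 1700047I17Rik2 had 152 reads in KO_LPS and 47 in WT_LPS, a ratio of 1.62, and 42 reads in KO and 85 in WT, a ratio of -1.05, with a difference of 2.67 (1.96 to 3.38).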

How the results depend on the processing

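DESeq2 size factors gave 195 genes higher and 207 lower in KO_LPS, and total counts 193 and 213. The 2 LPS libraries alone, which changed both scaling and filter (11432 genes tested), gave 197 and 194, of which 172 and 182 were among the 193 and 213. All 255 named genes kept their call with DESeq2 size factors and with total counts; Nlrp3 and Mpeg1, not called and with ratios near 0, changed sign with DESeq2. With the LPS libraries alone 251 kept direction and call, and 4 were under the filter. Counts moved with the filter and the size rule: 384 higher and 402 lower without a filter, 42 and 60 for genes averaging 10 CPM or more, 463 and 524 with a 1.5-fold rule, 65 and 56 with the whole interval beyond 2-fold, and 103 and 94 with the deposited FPKM as log2(value + 1), where calls use size alone. Of the 103 and 94 FPKM calls, only 50 and 46 were among the 193 and 213. List members higher and lower numbered 18 and 13 among those averaging 10 CPM or more, 78 and 61 with the 1.5-fold rule, and 24 and 13 with FPKM, and 14 were lower with the whole interval beyond 2-fold. The medians of 5 lists in the report changed sign under some setting, to -0.02 (adhesion), -0.01 (costimulation) and -0.01 (Toll-like receptors) for members averaging 10 CPM or more to 0.00 (interferon response) with DESeq2 and with the LPS libraries alone, and to 0.29 for the B cell markers, whose 2 measured members became Ighm alone among those averaging 10 CPM or more and with FPKM. Differences from the untreated ratio numbered 21 higher and 42 lower among genes averaging 10 CPM or more. Of 236 named genes tested with FPKM (19 were under its filter), 22 calls fell under 2-fold, on a scale that shrinks low genes. The 13 lower ones lay between -0.98 and -0.41: Angptl4 (-0.41), Egr3 (-0.42), S1pr1 (-0.44), H2-DMa (-0.48), Igf1 (-0.54), Smad6 (-0.54), Selplg (-0.56), Ltc4s (-0.76), Cxcr3, Klf10, Slc45a3, Siglec1 and Slc11a1. The 9 higher ones lay between 0.69 and 0.99: Tlr6, Cd48, Fpr1, Cd80, Ass1, 1700047I17Rik2, Ccrl2, Bcl2a1b and Dusp2. An alternative chosen after seeing the data, members with at least 10 reads on average, left 39 higher and 30 lower. The cause of these changes was not tested beyond the construction of each rule. No paired analysis was possible because each group held 1 library and its replicate number only names it; for the same reason no replicate could be left out. Genes under 5 CPM rest on few reads, and their calls are the least precise.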

Other observations

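Called genes that follow each other along a chromosome among the tested genes formed 31 pairs, of which 21 lay within 100 kb. In 18 of these 21 pairs both genes went the same way, 11 times higher and 7 times lower in KO_LPS. Members of some pairs overlap or share reads, so the pairs are a description. How often all tested neighbours within this distance went the same way was not computed, so no pattern by position can be read from these counts. Higher pairs held Klf3 and Tlr1 on chromosome 5, where Klf3, a repressor of the Kruppel-like family, had 55 reads in KO_LPS and 5 in WT_LPS (log2 ratio 3.39, 2.08 to 5.07), and Serpina3f and Serpina3g on chromosome 12, protease inhibitor genes with ratios of 1.27 (1.07 to 1.48) and 1.38 (1.20 to 1.55). The 3 pairs with opposite directions were Bin1 and Gypc, Pcdhgc3 and Pcdhgc5, and Clec2d and Cd69. Clec2d had a ratio of -3.15 (-3.76 to -2.59), and Cd69, also a C-type lectin-like gene of the same cluster on chromosome 6, one of 1.73 (1.47 to 1.99).

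Over the 20 chromosomes with enough genes, the median ratio of genes at 10 CPM and over lay between -0.02 and 0.03, over 8523 genes. Cytip, which binds the integrin regulator cytohesin 1, had 24 reads in KO_LPS and 1 read in WT_LPS (4.52, 1.90 to 9.88), while its untreated libraries held 278 reads in KO and 234 in WT. Apold1, an early gene of endothelial cells, was another gene called in opposite directions with and without LPS. It had 62 reads in KO_LPS and 12 in WT_LPS (2.30, 1.39 to 3.33) and 3 reads in KO and 26 in WT. These genes were named after their values were seen.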
